A study of Homo sapiens with 5 samples.

Results

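RUNX1 clusters are stretches of the genome in which RUNX1 peaks lie close together. They were selected on the RUNX1 peak list itself: peaks of chromosomes 1 to 22 and X were joined wherever the gap between neighbours was at most 12500 bp, called the joining gap here, and joined regions of 5 or more peaks were kept. This gave 1064 clusters of 20665 joined regions, holding 7677 of 36736 RUNX1 peaks, or 20.9% of the list. The other regions were 6422 of 2 to 4 peaks and 13179 of a single peak. Cluster number, span and bases in peaks follow from how the clusters were chosen and are given as descriptions. The H3K4me3 and SMA4 lists come from other libraries and played no part in the choice.

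The data are CUT&RUN profiles of MOLT-4, a human cell line grown from a T cell acute lymphoblastic leukaemia. In CUT&RUN an antibody tethers micrococcal nuclease, fused to protein A/G, to a chromatin protein, and the DNA cut loose is sequenced. Peak lists of 3 libraries were used, 1 each for RUNX1, for the histone mark H3K4me3 and for a target labelled SMA4; the 2 IgG samples were not used here. All libraries come from the same cell line, no genotype or treatment separates them, and with 1 library per antibody no value below has a replicate check and no test was made. Ranges in parentheses after a share are its 95% Wilson interval, which reflects counting error alone and is too narrow where neighbouring peaks are not independent. The lists hold positions alone, so the depth behind a peak is unknown.

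RUNX1 is a DNA-binding runt-domain transcription factor that acts with its partner CBFB and is needed for blood stem cell formation and T cell development. In leukaemia it can act as an oncogene or as a tumour suppressor. H3K4me3, trimethylated lysine 4 of histone H3, is found mainly at active or poised promoters. Transcription factor peaks that lie far from promoters are often at enhancers, and joining neighbouring peaks at a fixed gap is a common way to find dense enhancer groups. The name SMA4 is used as the labels write it. The positions are in hg19, an annotation of which was not used here, so no cluster is assigned to a gene.

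The clusters ranged from compact to very long. Their span, measured from the start of the first peak to the end of the last, was 2.76 kb at the lowest, 23.8 kb at the median and 122 kb at the highest, and in all they spanned 27.7 Mb. Bases inside RUNX1 peaks ran from 1.36 kb through a median of 5.10 kb to 42.1 kb per cluster. In total the clusters held 6.61 Mb of RUNX1 peak sequence, 22.7% of the bases of the list. Most of a cluster was not peak: the median cluster had 23.2% of its span in peaks, with quartiles of 16.7% and 32.7%. Peak width was similar in and out of clusters, with a median of 648 bp in clusters, 627 bp in regions of 2 to 4 peaks and 660 bp in single peaks. The median gap between neighbouring peaks was 1.73 kb in clusters and 2.36 kb in regions of 2 to 4 peaks.

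Small clusters dominated by number. Of the 1064 clusters, 410 had 5 peaks, 235 had 6 and 914 had 5 to 9. A further 135 had 10 to 19 peaks and 15 had 20 or more, with 43 the highest. The median span was 22.1 kb for 5 to 9 peaks, 41.4 kb for 10 to 19 and 86.7 kb for 20 or more. The share of the span inside peaks was 22.6%, 26.7% and 32.6% in the same order. The 12 clusters with the most bases in peaks held 5.50% of all cluster peak bases and the richest 100 held 23.8%. At the threshold the change was gradual. Regions of 5 peaks, just inside it, had a median span of 17.8 kb and 3.84 kb in peaks, against 13.9 kb and 2.98 kb for the 721 regions of 4 peaks just outside.

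RUNX1 peaks lay near one another more often than near peaks of a moved list. Moving the whole list along circular chromosomes leaves its spacing, and hence the 1064 clusters, as they are. The list was therefore set against copies of itself moved by 20 offsets of 1 to 10 Mb in either direction. Within the joining gap, 64.1% of RUNX1 peaks had another peak of the list, against a median of 23.1% that had a moved peak (lowest 21.8%, highest 29.4%). For at least 4 other peaks in that gap the shares were 13.4% and 1.83%, a ratio of 7.28. The ratio for at least 1 neighbour fell with distance, being 6.17 at 1 kb, 2.78 at the joining gap and 1.54 at 100 kb. This fall is in part set by the ceiling of 100%, since the shares at 100 kb were 94.9% and 61.5%. For at least 4 other peaks the ratio at 100 kb was 2.27. Copies moved by only 1 Mb met more peaks, 29.4% and 29.3%, than copies moved by 10 Mb, 21.8% and 22.1%. These shares describe the list from which the clusters were taken and are not evidence independent of it.

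**Figure D1:**
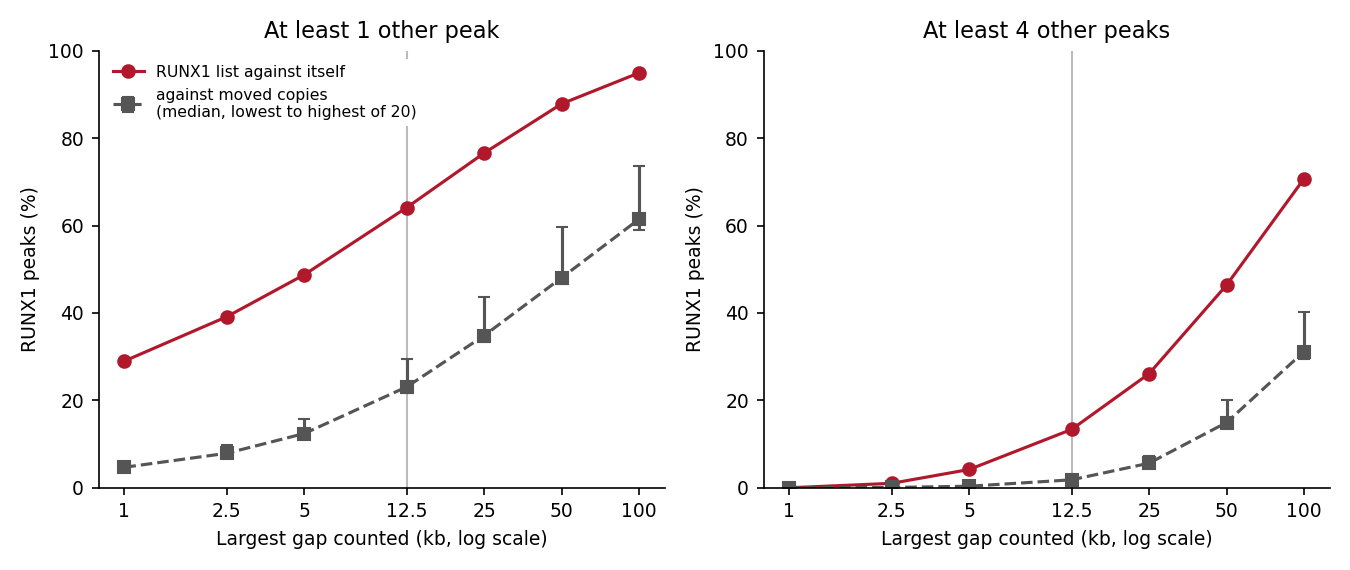
Share of RUNX1 peaks (%) with at least 1 (left) or at least 4 (right) peaks within the gap on the x axis (kb, log scale), for the list against itself (circles) and against moved copies (squares: median of 20 offsets; bars: lowest to highest). At the joining gap, marked by the vertical line, 64.1% of peaks had a neighbour, against a median of 23.1% in moved copies.

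All 23 chromosomes showed more grouping than each of their 20 moved copies. Here and above, copies were moved over the whole chromosome, with no stretch left out. Moved peaks can therefore fall where no peak could be called, which can lower the moved shares. How far it did so was not tested. The ratio of the observed share to the median of the copies was lowest on chromosome 19 at 1.46, where 65.6% of peaks had a neighbour within the joining gap, against 44.9% in moved copies. It was highest on X at 5.66, with 57.6% against 10.2%. The observed shares of these chromosomes differed less than the shares of their copies. Chromosome 19 carried 26.8 RUNX1 peaks per Mb and X carried 5.84.

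Clusters carried H3K4me3 more often than smaller regions did, but a smaller share of their peaks carried it. An H3K4me3 peak lay in 704 of the 1064 clusters, or 66.2% (63.3 to 68.9), against 42.4% of all RUNX1 regions, 51.4% of regions of 2 to 4 peaks (50.2 to 52.6) and 36.2% of single peaks (35.3 to 37.0). Within the clusters the share was 64.3% for 5 to 9 peaks, 77.0% for 10 to 19 and 80.0% (12 of 15, 54.8 to 93.0) for 20 or more. Clusters are also longer and hold more peaks, and counted per RUNX1 peak the order was the other way round. H3K4me3 overlapped 23.7% of the RUNX1 peaks in clusters (22.8 to 24.7), 33.1% of those in regions of 2 to 4 peaks and 36.2% of single peaks. The per-peak share was 25.5% in clusters of 5 to 9 peaks, 19.7% in those of 10 to 19 and 16.3% in those of 20 or more. Clusters held 67.0 H3K4me3 peaks per Mb of span, against 104 in regions of 2 to 4 peaks and 492 at single peaks. The median share of the span in RUNX1 peaks was 23.2%, 30.6% and 100% in the same order. Part of the difference in density therefore follows from how span is counted. The adjoining sizes differed less: 62.9% of 5-peak clusters (58.2 to 67.5) and 56.9% of 4-peak regions (53.2 to 60.4) held H3K4me3, and these intervals overlap.

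**Figure D2:**
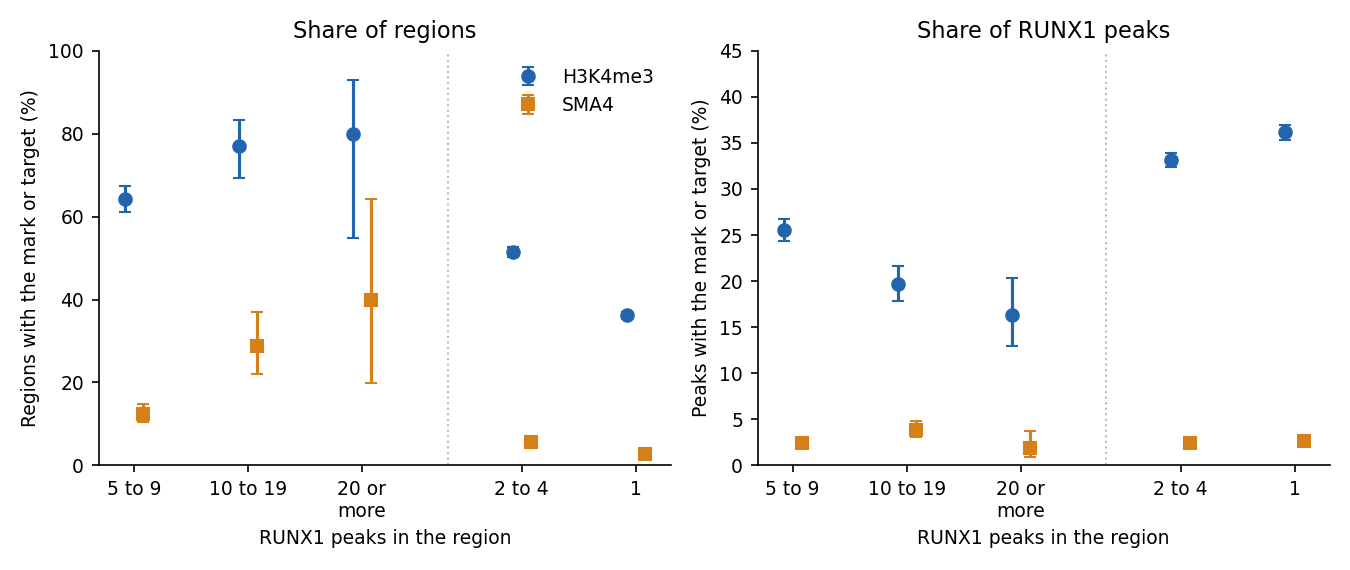
Share (%) of RUNX1 regions (left) and of RUNX1 peaks (right) that overlap an H3K4me3 peak (circles) or an SMA4 peak (squares), by the number of RUNX1 peaks in the region; clusters are left of the dotted line and bars are 95% Wilson intervals. Per region the H3K4me3 share is higher in larger clusters, at 64.3%, 77.0% and 80.0%, whereas per peak it is lower, at 25.5%, 19.7% and 16.3%.

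In most clusters with H3K4me3 the mark was not restricted to an end. An H3K4me3 peak was counted at an edge where it overlapped the first or last RUNX1 peak or crossed the border of the cluster, and inside otherwise. Of the 704 clusters with H3K4me3, 154 had it at an edge only (21.9%, 18.98 to 25.1), 267 inside only (37.9%, 34.4 to 41.6) and 283 in both places (40.2%, 36.6 to 43.9). Where there was 1 H3K4me3 peak, in 226 clusters, it was at an edge in 114 (50.4%, 44.0 to 56.9). Over all clusters, with or without the mark, first and last peaks make up a mean of 31.5% of the peaks of a cluster. That mean was not taken over the 226 clusters alone. The edge rule also counts an H3K4me3 peak that covers both an end peak and inner peaks. Clusters with the mark at an edge only were smaller, with a median of 5 RUNX1 peaks, 22.9 kb of span and 4.81 kb in peaks. Those with it inside only had a median of 7 peaks, 25.1 kb of span and 5.38 kb in peaks. This order follows in part from the edge rule, since more of a small cluster's peaks are end peaks. Of the 437 clusters with H3K4me3 at an end, 102 had it on both end peaks (23.3%).

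Counted peak by peak, ends and middles differed little. H3K4me3 overlapped 539 of 2128 first or last RUNX1 peaks (25.3%, 23.5 to 27.2) and 1283 of 5549 peaks between them (23.1%, 22.03 to 24.2). These intervals overlap, and the direction turned at a joining gap of 5 kb, where the shares were 18.1% and 20.9%. It also turned when H3K4me3 within 1 kb was counted, with 28.5% and 28.8%. The peaks next to the ends, second and second last, had 25.2%, the first peaks alone 25.6% and the last peaks 25.1%. Along the span divided into 10 equal bins, the share was 25.9% in the first bin and 23.9% in the last, and between 20.8% and 25.3% in the 8 bins between. The outer bins hold the end peaks of every cluster and so hold more RUNX1 peaks, 1437 and 1444, than the inner bins, with 534 to 637. The H3K4me3 peaks followed that excess: 19.3% of their midpoints fell in the first bin and 17.99% in the last, against 7.54% to 8.56% in each bin between.

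The H3K4me3 peaks of clusters were many and often narrow. Clusters held 1857 of the 13181 H3K4me3 peaks (14.1%), of which 1744 lay on a RUNX1 peak (93.9%). Of the whole list 88.1% did, a share that includes H3K4me3 peaks in no RUNX1 region. This comparison is in part set by the choice of clusters, which are dense in RUNX1 peaks. In a region of a single RUNX1 peak, every H3K4me3 peak counted lies on RUNX1 by definition. The median width of H3K4me3 peaks in clusters was 624 bp (quartiles 288 and 1436), against 980 bp (377 and 1532) outside clusters. Those at an edge had a median of 929 bp and those inside 514 bp. Peaks under 500 bp made up 43.6% (41.4 to 45.9) of H3K4me3 peaks in clusters and 31.0% (30.1 to 31.8) outside. Of the 810 narrow peaks in clusters, 157 (19.4%) lay within 1 kb of an H3K4me3 peak of at least 1000 bp. The widest H3K4me3 peak of a region had the opposite order, with a median of 1475 bp in clusters with the mark, 1322 bp in regions of 2 to 4 peaks and 1197 bp at single peaks. Clusters with the mark held a median of 2 H3K4me3 peaks, against 1 in each of the smaller classes. In 451 of the 704 (64.1%) the widest H3K4me3 peak was at least 1000 bp, and in 123 (17.5%) it was under 500 bp. Counting only H3K4me3 peaks of at least 500 bp, 54.6% of clusters had the mark, 29.3% of these at an edge only.

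RUNX1 peaks that overlapped H3K4me3 were the wide ones. Their median width in clusters was 1042 bp, against 540 bp for the other RUNX1 peaks of the same clusters and 595 bp in clusters with no H3K4me3. A wider peak has more bases with which to overlap, and how far that alone accounts for the difference was not tested. In 512 of the 704 clusters with the mark (72.7%, 69.3 to 75.9) it lay on the widest RUNX1 peak, while it lay on 34.7% of all RUNX1 peaks of those clusters. Close to the mark but not on it, RUNX1 peaks were narrow: the median was 418 bp up to 2 kb from H3K4me3, 526 bp at 2 to 5 kb, 551 bp at 5 to 10 kb and 588 bp beyond 10 kb. Overlap with SMA4 had the same order, at 3.29% on H3K4me3 (2.57 to 4.22), 0.765% up to 2 kb away (0.327 to 1.78), 1.65% at 2 to 5 kb, 2.14% at 5 to 10 kb and 2.57% beyond 10 kb (1.85 to 3.55). The SMA4 shares rest on 60, 5, 11, 16 and 35 peaks. A wide RUNX1 peak close to the mark is more likely to touch it and so be counted on it. A wider peak also has more bases with which to meet SMA4. How far either accounts for these values was not tested. The intervals of peaks on the mark and up to 2 kb from it do not overlap, while those of the other neighbouring classes do.

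**Figure D3:**
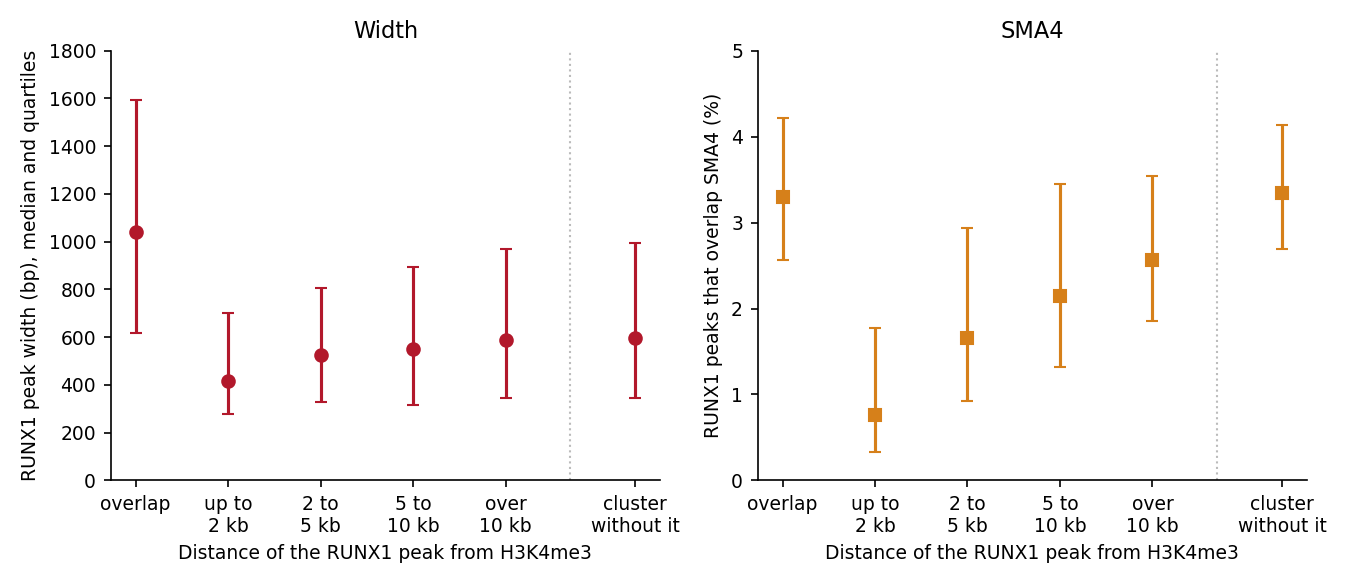
RUNX1 peaks of clusters by their distance from the nearest H3K4me3 peak (x axis, kb), with peaks of clusters that hold no H3K4me3 right of the dotted line: width in bp (left, median with quartiles) and the share that overlaps an SMA4 peak (right, % with 95% Wilson interval). Peaks up to 2 kb from the mark have the lowest values, 418 bp and 0.765% (5 of 654 peaks), and peaks on the mark have the highest median width, 1042 bp.

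No H3K4me3 peak lay in 360 of the 1064 clusters (33.8%, 31.1 to 36.7). Their median number of RUNX1 peaks was 6, as in clusters with H3K4me3, but the upper quartile was 7 against 8. At least 10 RUNX1 peaks were held by 34 of the 360, against 116 of the 704 with H3K4me3. Clusters without the mark were somewhat shorter, with a median span of 21.8 kb against 24.9 kb in clusters with H3K4me3. They also held fewer bases in peaks, 4.36 kb against 5.44 kb, and their widest peak was narrower, with a median of 1445 bp against 1788 bp. The nearest H3K4me3 peak was 12.3 kb away at the closest and 65.1 kb at the median, with quartiles of 32.1 and 136 kb. It was within 20 kb for 28 clusters (7.78%), within 50 kb for 144 (40.0%) and within 100 kb for 233 (64.7%). For regions without H3K4me3 in the smaller classes the median distance was longer, 78.3 kb for 2 to 4 peaks and 90.8 kb for single peaks. At short range the order was not the same, since 10.4% of the regions of 2 to 4 peaks and 9.48% of the single peaks lay within 20 kb. An H3K4me3 peak on a RUNX1 peak within the joining gap belongs to the region by construction, and in all 3 classes few regions without the mark had one within that gap: 1 of 360 clusters, 43 of 3120 regions of 2 to 4 peaks and 130 of 8414 single peaks.

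SMA4 peaks were found in few clusters, though in more of them than of other regions. The list is much shorter, with 1475 peaks, and differs from the others in batch and peak-calling pipeline as well as antibody. Of the 1064 clusters 159 held an SMA4 peak (14.9%, 12.93 to 17.2), against 4.2% of all RUNX1 regions, 5.51% of regions of 2 to 4 peaks and 2.69% of single peaks. The share was 12.47% for clusters of 5 to 9 peaks, 28.9% for 10 to 19 and 40.0% (6 of 15, 19.8 to 64.3) for 20 or more. Per RUNX1 peak the 3 classes differed little: SMA4 overlapped 2.71% of peaks in clusters (2.37 to 3.10), 2.38% in regions of 2 to 4 peaks and 2.69% of single peaks. Within the clusters the per-peak share was 2.41% for 5 to 9 peaks (2.04 to 2.85), 3.85% for 10 to 19 (3.04 to 4.86) and 1.84% for 20 or more (0.893 to 3.74), highest in the middle class. Of the 67 RUNX1 peaks with SMA4 in the middle class, 10 lay in a single cluster, on chromosome 3 from 35676822. Of the 240 SMA4 peaks in clusters, 222 lay on a RUNX1 peak (92.5%) and 47 on H3K4me3 (19.6%, 15.1 to 25.1). Outside clusters 60.7% of SMA4 peaks lay on a RUNX1 peak and 22.2% on H3K4me3. The first of these comparisons is in part set by the choice of clusters, which are dense in RUNX1 peaks. At least 2 SMA4 peaks lay in 47 of the 159 clusters (29.6%).

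Clusters without H3K4me3 held SMA4 more often than clusters with it, 70 of 360 (19.4%, 15.7 to 23.8) against 89 of 704 (12.6%, 10.4 to 15.3). The difference was largest in small clusters. With 5 or 6 peaks the shares were 17.8% without H3K4me3 (13.5 to 23.2) and 8.17% with it (5.88 to 11.2). With 7 to 9 peaks they were 18.8% (11.9 to 28.4) and 11.96% (8.03 to 17.4), and with 10 or more 32.4% and 29.3%. The intervals overlap with 7 to 9 peaks, and widely with 10 or more. The share was higher without H3K4me3 on 18 of 23 chromosomes. On some of the 23 few clusters held SMA4, with 1 each on chromosomes 21 and 22 and 2 each on 9, 16 and 19. The direction there rests on those few. Leaving out chromosomes 17 and 19, which are dense in H3K4me3, the share was 20.3% without the mark (16.3 to 24.9) and 14.0% with it (11.5 to 17.1). These intervals overlap. The direction was the same under each of the 9 other settings tried, with the nearest values, 18.1% and 15.7%, at a joining gap of 5 kb. These settings draw on the same peak lists and are not independent checks. Counting peaks within 1 kb left both shares unchanged, and no cluster without the mark had H3K4me3 closer than 12.3 kb. Counted by RUNX1 peak, SMA4 overlapped 3.34% of peaks in clusters without H3K4me3 (2.697 to 4.13). In clusters with the mark it overlapped 1.95% of peaks off it (1.54 to 2.47) and 3.29% of peaks on it. In regions of 2 to 4 peaks the values in this order were 2.93%, 1.16% and 2.28%.

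Clusters were not spread evenly over the chromosomes. Chromosome 17 had 0.998 clusters per Mb (81 clusters) and chromosome 19 had 0.965 (57). The lowest densities were 0.141 on chromosome 18 (11 clusters) and 0.155 on X (24). Density of clusters went with density of RUNX1 peaks over the 23 chromosomes, with Pearson's r of 0.98 and Spearman's rho of 0.93, as 2 counts from the same list must in large part. The share of a chromosome's RUNX1 peaks that lay in clusters ran from 13.1% on chromosome 18 to 29.8% on chromosome 17 and 32.2% on chromosome 21. Clusters without H3K4me3 made up 4 of 57 on chromosome 19 (7.02%), 4 of 21 on chromosome 21, 18 of 32 on chromosome 4 (56.3%, 39.3 to 71.8) and 6 of 11 on chromosome 18 (54.5%). This share was lower where H3K4me3 peaks were denser, with r of -0.67 and rho of -0.50, and r of -0.49 and rho of -0.37 without chromosomes 17 and 19. Denser H3K4me3 peaks leave fewer spans without one, so part of this relation follows from the counting. Chromosome 13, with the lowest H3K4me3 density at 2.13 per Mb, had 31.8% of its clusters without the mark. Chromosomes share the library and differ in length and gene density, so these coefficients are descriptions.

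**Figure D4:**
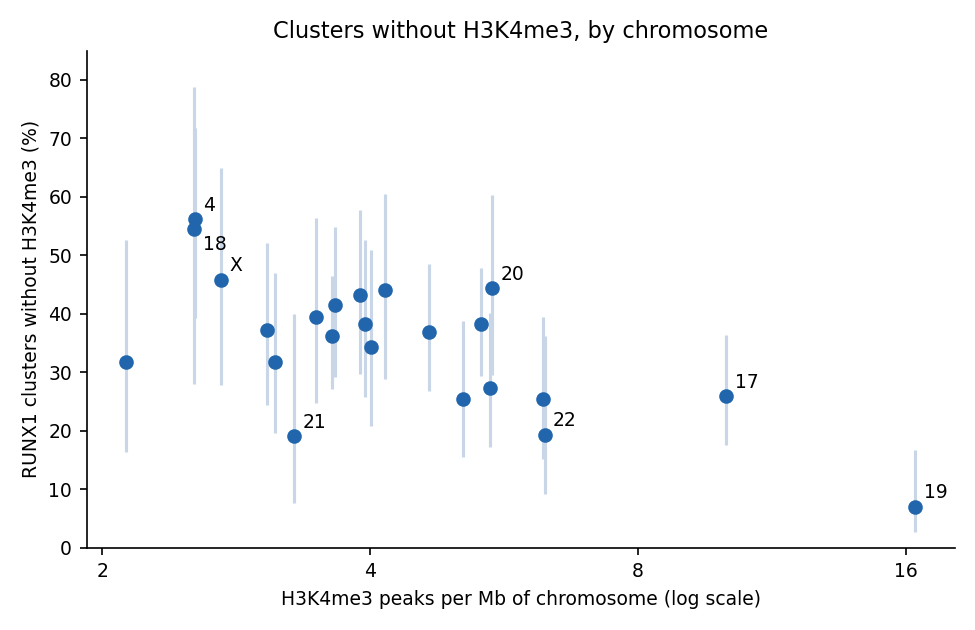
Share of RUNX1 clusters that hold no H3K4me3 peak (%, with 95% Wilson interval) against H3K4me3 peaks per Mb (log scale) for the 23 chromosomes, some of which are labelled. Chromosome 19, with 16.4 H3K4me3 peaks per Mb, has the lowest share at 7.02%, and chromosomes 4 and 18, with 2.54 per Mb each, the highest at 56.3% and 54.5%. Chromosome 13, the lowest in density at 2.13 per Mb, has 31.8%.

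Some clusters had another cluster within 100 kb. Linking clusters with at most 100 kb between them gave 150 chains of 2 or more, which held 353 of the 1064 clusters, and left 711 on their own. The chains had 2 clusters in 110 cases, 3 in 28, 4 in 11 and 5 in a single case. Between neighbouring clusters of a chromosome the median gap was 771 kb, with quartiles of 156 and 2945 kb. The chain of 5 lay on chromosome 1 from 158150444 to 158378684 and mixed clusters of different kinds. Its members had 8, 5, 7, 7 and 7 RUNX1 peaks in order of position. They held 4, 1, 0, 2 and 0 H3K4me3 peaks, and only the first, with 1, and the last, with 4, held SMA4 peaks. The nearest RUNX1 region of any size was at a median of 21.2 kb from a cluster and 34.1 kb from a single peak. Chains and distances rest on the same RUNX1 spacing as the choice of clusters, and were not set against moved copies. Regions lie further apart than the joining gap by construction. A dense stretch with a gap just over it counts as separate clusters, and the smallest gap between clusters was 12.6 kb.

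The richest cluster lay on chromosome 21 from 36334788 to 36432496. It had 32 RUNX1 peaks over 97.7 kb, of which 42.1 kb, or 43.0% of the span, was in peaks. Of these peaks 6 were over 2 kb wide. The widest, of 5334 bp, began 82.6 kb from the start of the cluster and was number 30 in order of position. That peak also carried the wider of 2 H3K4me3 peaks, of 3339 bp from 36418453 to 36421791. The other, of 212 bp, lay on number 21. The second widest RUNX1 peak, of 4386 bp from 36381667 to 36386052, had neither H3K4me3 nor SMA4, and no SMA4 peak lay in the cluster.

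The cluster with the most peaks lay on chromosome 17 from 55508565 to 55630201. Its 43 RUNX1 peaks covered 38.9 kb of 122 kb, with a median width of 575 bp. It held a single H3K4me3 peak of 656 bp, on the last RUNX1 peak (2997 bp wide, from 55627205 to 55630201). The other 42 peaks had none, including the widest, of 3938 bp. Its neighbours in rank were shorter but denser. The cluster on chromosome 3 from 17974377 to 18037623 had 16 RUNX1 peaks, with 34.6 kb of its 63.2 kb in peaks, the highest share of span (54.7%) among the 12 richest. Its 1 H3K4me3 peak was 299 bp wide and lay inside, and its widest RUNX1 peak, of 6639 bp, had none.

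The cluster ranked 4, on chromosome 14 from 98628903 to 98693909, had its H3K4me3 at one end. A peak of 4119 bp covered the first 4 of its 21 RUNX1 peaks and crossed the border of the cluster. Its widest RUNX1 peak, 9724 bp from 98660985 to 98670708, held 30.6% of the peak bases and overlapped no H3K4me3. SMA4 lay on RUNX1 peaks of 5395 and 2251 bp. On chromosome 5 from 133375294 to 133468686, 29 RUNX1 peaks covered 29.0 kb. Of its 5 H3K4me3 peaks 1 was 6938 bp wide and 4 were 410 bp or less, and the widest RUNX1 peak, of 6369 bp, had none of them.

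Chromosome 17 held 2 more of the 12 richest. From 78676918 to 78765828, 30 RUNX1 peaks covered 28.9 kb, and 8 of them overlapped the 6 H3K4me3 peaks, the widest of which (5288 bp) reached over peaks 15 to 19. From 75352374 to 75471576, 26 RUNX1 peaks covered 28.6 kb, and an H3K4me3 peak of 4492 bp lay within the widest RUNX1 peak, of 5270 bp. In these 2 clusters, unlike the ones on chromosomes 14 and 5, the widest RUNX1 peak carried the mark. In the one at 78676918 it carried only narrow H3K4me3 peaks, of 380 and 179 bp.

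Chromosome 1 held 2 rich clusters near each other. The first, from 198976446 to 199026837, had 17 RUNX1 peaks over 50.4 kb, 8 H3K4me3 peaks and 6 SMA4 peaks. The SMA4 peaks lay on 4 RUNX1 peaks, which were the 4 widest, of 4815, 2936, 2871 and 2198 bp. H3K4me3 also lay on the 4815 bp and 2198 bp peaks. The second, from 199114844 to 199172381, had 20 RUNX1 peaks over 57.5 kb. Its widest, of 7615 bp, carried 3 of the 4 H3K4me3 peaks, and its 1 SMA4 peak lay on the last RUNX1 peak.

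The remaining 2 of the 12 with H3K4me3 differed in where their bases lay. On chromosome 9 from 132585398 to 132658118 a single RUNX1 peak of 11712 bp held 46.1% of the peak bases. It was the last of 16 peaks and carried 7 of the 10 H3K4me3 peaks, all 559 bp wide or less. A wider H3K4me3 peak of 2391 bp lay on RUNX1 peaks 3 and 4. On chromosome 3 from 196321244 to 196372447, 23 RUNX1 peaks covered 25.1 kb of 51.2 kb. H3K4me3 overlapped 11 of them, and an H3K4me3 peak of 4306 bp reached over peaks 18 to 21.

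Of the 12 richest, 11 held H3K4me3: 8 inside only, 2 at an edge only and 1 in both places. The mark lay on the widest RUNX1 peak in 7 of the 12, and 5 held SMA4. In some of these 7 only narrow H3K4me3 peaks lay on the widest RUNX1 peak. They were at most 380 bp in the cluster at 78676918, 297 bp in the one at 198976446 and 559 bp on chromosome 9. These clusters were picked for their bases in peaks, so the high counts of peaks are part of the choice.

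**Figure D5:**
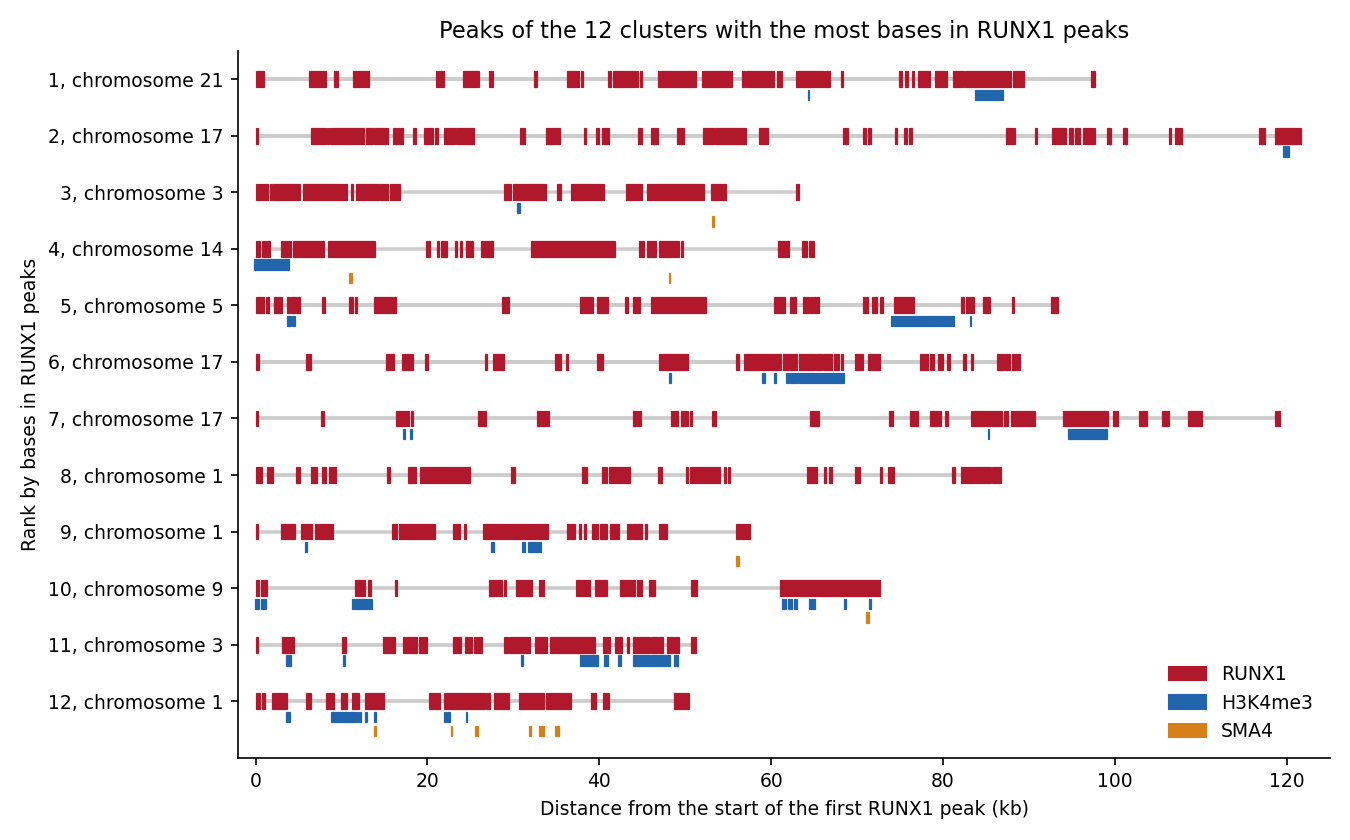
Peaks of the 12 clusters with the most bases in RUNX1 peaks, ranked from the top, with distance from the start of the first RUNX1 peak on the x axis (kb); RUNX1 peaks are drawn on the line, H3K4me3 and SMA4 peaks under it, to scale with a minimum visible width. In the cluster ranked 2 the H3K4me3 peak lies at the last RUNX1 peak, in the cluster ranked 4 it covers the first 4, and the cluster ranked 8 has none.

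The richest cluster without H3K4me3 lay on chromosome 1 from 230238937 to 230325663 and ranked 8 of all 1064 by bases in peaks. Its 30 RUNX1 peaks covered 27.4 kb of 86.7 kb. The 3 widest, of 4227, 3430 and 3419 bp, lay 19.2, 50.6 and 82.1 kb from its start, so wide peaks were found along the whole length. No SMA4 peak lay in it, and the nearest H3K4me3 peak was 32.6 kb away. On chromosome 4 from 109222953 to 109295686, 15 RUNX1 peaks covered 22.2 kb. Of these bases 27.6% were in the widest peak, of 6116 bp, which carried an SMA4 peak of 696 bp, and H3K4me3 was 128 kb away.

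On chromosome 12 from 11917781 to 11978682 the bases were spread more evenly. Its 20 RUNX1 peaks covered 21.4 kb and the widest, of 2806 bp, held 13.1% of them. It held 1 SMA4 peak, and H3K4me3 was 113 kb away. The cluster on chromosome 1 from 229259720 to 229291726 was compact, with 11 peaks over 32.0 kb and 53.8% of the span in peaks. That share was the highest among the 10 richest clusters without H3K4me3, and its 4 widest peaks were 2920 to 3669 bp. On chromosome 15 from 70716957 to 70805552 the reverse was found: 22 peaks with a median width of 404 bp were strung over 88.6 kb, and 17.6% of the span was in peaks. Here the nearest H3K4me3 peak was 22.3 kb away, the closest among the 10.

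The other 5 of these 10 had 13 to 19 RUNX1 peaks. They lay on chromosome 14 from 61899833 to 61946270, on chromosome 10 from 117947358 to 117978223 and from 126300177 to 126374373, on chromosome 7 from 142189186 to 142250396 and on chromosome 17 from 10007193 to 10060776. Their peak bases were 13.6 to 16.2 kb, and H3K4me3 was 39.8 to 109.7 kb away. SMA4 lay in 4 of the 10, those on chromosomes 4, 12, 15 and 7. Of the 15 clusters with 20 or more RUNX1 peaks, 3 had no H3K4me3, those at 230238937 on chromosome 1, on chromosome 15 and on chromosome 12.

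SMA4 peaks were most numerous on chromosome 3 from 35676822 to 35713687. This cluster of 19 RUNX1 peaks over 36.9 kb held 13 SMA4 peaks, 10 RUNX1 peaks overlapped at least 1 of them, and 3 of the SMA4 peaks lay on no RUNX1 peak. Of its 3 H3K4me3 peaks the widest, of 5905 bp, covered RUNX1 peaks 2 to 5, and 3 of the SMA4 peaks lay on it. The next cluster, on chromosome 3 from 151909611 to 151923531, was small, with 6 RUNX1 peaks, 3.14 kb in peaks and rank 923 of 1064. It held 7 SMA4 peaks, of which 4 lay between RUNX1 peaks and 3 on them, all off its H3K4me3 peak of 222 bp. Next by this count was the cluster at 198976446 on chromosome 1, given above with 6.

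The other 2 had 4 SMA4 peaks each. On chromosome 2 from 182164431 to 182179489, 5 RUNX1 peaks covered 11.1 kb, or 73.9% of the span, and 1 of them, of 6562 bp, held 59.0% of these bases and 3 of the SMA4 peaks. On chromosome 1 from 158359781 to 158378684, the last cluster of the chain of 5, 7 RUNX1 peaks covered 8.31 kb. Its widest peak, of 3383 bp, carried 3 SMA4 peaks and the first peak carried the other. No H3K4me3 lay in it, and the nearest was 32.2 kb away.

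H3K4me3 peaks were most numerous in a cluster on chromosome 17 from 8021971 to 8126494, which held 14. All but 1 of these lay on a RUNX1 peak, and 13 of the 20 RUNX1 peaks carried the mark. None of the 14 was wider than 1391 bp, no RUNX1 peak was wider than 1938 bp, and 14.6% of the 105 kb span was in RUNX1 peaks. The cluster on chromosome 19 from 1847842 to 1942971 was alike in this, with 10 H3K4me3 peaks, a widest of 1678 bp, 19 RUNX1 peaks and 13.8% of 95.1 kb in peaks. Both held H3K4me3 at an edge and inside, and neither held SMA4. A count of 10 was found in 3 clusters, the others being the chromosome 9 cluster described above and one on chromosome 11 from 67137478 to 67211711, with 15 RUNX1 peaks. The last of these comes after the chromosome 19 cluster by bases in RUNX1 peaks, 13.1 kb against 13.2 kb, and is named here for the tie only.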

How the data were processed

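Chromatin of MOLT-4 cells was profiled by CUT&RUN with 1 library per antibody. The authors deposited 1 peak list per library, with chromosome, start, end and a peak name, and no fold, p-value, summit or count. Per the file headers, RUNX1 and H3K4me3 peaks came from MACS2 in a folder named for batch 2, and SMA4 peaks from cutruntools at a q threshold of 0.01 in a folder named for batch 3. The submitters' processing notes also name SEACR and hg19. Not given in the sources used here are the aligner, the control, and the threshold for RUNX1 and H3K4me3. Antibody, batch and pipeline of SMA4 cannot be told apart. The threshold sets how many peaks a list holds, and with it the number of clusters.

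From the lists, 36736 of 36777 RUNX1, 13181 of 13199 H3K4me3 and 1475 of 1479 SMA4 peaks were kept (chromosomes 1 to 22 and X), with positions written 1-based. Regions were joined at 12.5 kb, overlap meant at least 1 bp, and a mark counted as in a region where it lay anywhere in its span. Moved copies wrapped round at the highest peak end of the 3 lists. Regions described singly are the 12 clusters with the most bases in RUNX1 peaks, the 5 with the most peaks, the 10 with the most bases among those without H3K4me3, the 5 with the most SMA4 peaks and the 3 with the most H3K4me3 peaks, with ties ordered by bases in RUNX1 peaks. Python 3.11.15, numpy 2.4.6, scipy 1.17.1 and matplotlib 3.10.9 were used, and the joining and overlap steps were tested on simulated lists against a direct search. The joining gap, minimum number of peaks, list size, overlap rule and edge rule were varied. The members and settings were chosen with earlier results of these data known. Genes and sequences are not reported, since no hg19 annotation or genome was used here.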

Additional observations from a re-analysis of the deposited data

Results flagged for a closer look

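On the mitochondrial genome, which the choice of clusters left out, the RUNX1 list held 9 peaks that joined to 1 region of 9 peaks and 13227 bp, from 30 to 16571. The H3K4me3 and SMA4 lists held 0 peaks there. This was singled out as signal in data outside the comparisons, without an IgG list to set it against.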

How the results depend on the processing

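No p-value was given, so each of 58 alternatives was set against the interval of its value or, for the number of clusters, a change of over 1.5 times; 21 stayed within and 37 did not. Some of the 21 left the value exactly as it was and are no sign of stability. Among them were merging touching peaks and, for the shares of clusters with H3K4me3 and with SMA4, counting peaks within 1 kb. The number of clusters was 495 at a joining gap of 5 kb, 1675 at 25 kb, 1785 with at least 4 peaks, 299 with at least 8, and 95 with only as many of the widest RUNX1 peaks as there are H3K4me3 peaks. In the same order of settings, clusters held 8.93%, 37.4%, 28.7%, 9.19% and 4.47% of RUNX1 peaks (19.5% without peaks at the minimum width), H3K4me3 lay in 55.4%, 75.3%, 62.4%, 71.9% and 76.8% of them, and among those with it was at an edge only in 25.5%, 17.8%, 29.2%, 12.6% and 27.4%. With an edge of 2.5 kb the edge-only share was 32.1%. SMA4 lay in 12.4% with at least 4 peaks, 24.1% with at least 8 and 24.2% with the widest peaks. The share of first or last peaks with H3K4me3 was 18.1% at 5 kb, 29.5% at 25 kb, 22.9% with at least 8 peaks, 38.4% with the widest and 28.5% within 1 kb. The share with a neighbour was 48.8% at 5 kb, 76.6% at 25 kb, 62.7% without peaks at the minimum width and 35.9% with the widest. H3K4me3 peaks of at least 500 bp, an alternative chosen after seeing the data, gave 54.6% of clusters, 29.3% at an edge only and 18.7% of first or last peaks. A larger gap or lower minimum joins more by construction; the cause of the other moves was not tested. The share of clusters covering a gene, and its alternatives, were not run, since no hg19 annotation was used here. No paired analysis was possible because each antibody had 1 library. Depth is unknown, so absence from a list is not absence of binding.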
